A study of Drosophila melanogaster with 382 samples.

Results

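The 5 actin genes Act5C, Act42A, Act57B, Act79B and Act87E were followed through a set of cryosliced Drosophila melanogaster blastoderm embryos, in which the RNA of each slice along the anteroposterior axis was sequenced on its own. They were taken by symbol, and all 5 have a row among the 13588 genes of the deposited expression table. The set holds 382 slices from 25 embryos, of which 338 slices carry FPKM values (fragments scaled by transcript length and library size, so that levels can be compared between genes). An embryo, not a slice, was the replicate, and a level is the mean FPKM over the slices of an embryo unless a slice is named.

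Wild type was Canton-S, with 1 embryo each at nuclear cycles 11, 13, 14A, 14B, 14C, 14D and 14E. The zld embryos came from mothers with a zld germline clone and a His2Av RFP marker, with 3 embryos at cycle 13 and 1 each at cycles 11, 14A, 14B and 14D. The bcd RNAi and hb RNAi embryos came from aged mothers in which a maternal tubulin Gal4 driver expressed a short hairpin RNA against bcd or hb. There were 2 bcd RNAi embryos at cycle 13 and 2 at cycle 14D, and 1 hb RNAi embryo at cycle 13 and 2 at cycle 14D. The 2.4x bcd embryos, 2 at each of cycles 13 and 14D, came from a single line that carries extra copies of an eGFP-Bcd fusion. TruSeq with yeast carrier RNA was used for wild type and zld, while the other 3 lines had thinner slices, SMARTseq2 and no carrier. In a comparison of those 3 lines with wild type, the genotype and the library method cannot be told apart. Bcd RNAi, 2.4x bcd and hb RNAi can be compared with each other within one method. By the paper's methods, however, the mothers of the RNAi embryos were older than those of 2.4x bcd and zld. Between the RNAi lines and 2.4x bcd, genotype therefore cannot be told apart from maternal age or the line's background.

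The estimated number of fragments per slice had a median of 841487 for wild-type slices, 2441048 for zld, 4167911 for bcd RNAi, 4560421 for hb RNAi and 2738513 for 2.4x bcd, so that 1 FPKM of Act87E stood for about 1.56 fragments in a wild-type slice and 7.72 in a bcd RNAi slice. At cycle 13 the targeted genes were low where the labels say so. The bcd level was 6.31 and 9.72 in bcd RNAi against 94.2 FPKM in wild type, with 131.6 and 155.8 in 2.4x bcd. That of hb was 4.55 in hb RNAi against 26.8 in wild type. The zld gene (listed as vfl) was at 0 to 0.645 in 6 of 7 zld embryos, against 2.3 to 10.2 in wild type. The zld embryo of cycle 14B had 5.01. At cycle 14D, target levels did not set the RNAi lines apart from each other. There bcd mRNA measured 0.929 and 1.84 FPKM for bcd RNAi, 0.723 and 0.622 for hb RNAi, and 11.3 and 4.21 for 2.4x bcd. The hb mRNA measured 29.9 and 19.2 FPKM for hb RNAi, against 20.1 and 24.4 for bcd RNAi. Both RNAi lines lay below the wild-type embryo of that cycle for each gene (72.05 for bcd and 150.4 for hb). Only 3 slices, all in bcd RNAi embryos of cycle 14D, correlated with the rest of their embryo below 0.9, and the differences that rest on them are given with and without them.

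Actin polymerises into the filaments that shape cells and, with myosin, contract. In the fly, Act5C and Act42A encode the cytoplasmic actins that nearly all cells use, and in the syncytial blastoderm actin filaments build the caps and furrows around the nuclei and then the membranes of cellularization. Act57B, Act87E and Act79B encode muscle actins, the first pair used in larval body wall muscle and Act79B in certain adult muscles of the thorax, and muscle itself forms from the mesoderm long after the blastoderm stage.

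Act5C lies on the X chromosome at positions 5900861 to 5905399 of the plus strand, with 5 annotated transcripts. Act42A lies on 2R at 6013910 to 6015689 of the minus strand and Act57B on 2R at 20944021 to 20946431 of the plus strand. Act79B lies on 3L at 21985210 to 21987190 and Act87E on 3R at 13425983 to 13428375, both on the plus strand (genome release 6). Actins are known as nearly identical proteins, and reads from stretches that their genes share could be divided wrongly between them, which was not measured here. The 5′ end of Act87E overlaps the antisense gene lncRNA:CR45591, and the strand of reads was not used, so transcripts of that pair cannot be separated where they overlap.

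In every embryo Act5C was the most abundant of the 5 actins, followed by Act42A. The 3 muscle genes among them together made up at most 0.956% of the FPKM summed over these 5 genes (0.899% without the slices that stood apart). That sum is called summed actin FPKM below, and other actin genes were not included. In wild type, Act5C was at 1111 FPKM at cycle 11, 1473 at cycle 13, 1299 at 14A, 1690 at 14B, 1566 at 14C, 2349 at 14D and 2148 at 14E. Act42A was at 151.1 FPKM at cycle 11, 200.7 at cycle 13, 242.2 at 14A, 302.1 at 14B, 308.7 at 14C, 405.2 at 14D and 366.4 at 14E. Both genes were lowest at cycle 11 and highest at cycle 14D. Over the 7 stages taken as equal steps, Act42A rose by 0.22 ± 0.05 (SE) per step on the log2(FPKM + 1) scale (limma, adjusted p = 0.00986), and the slope of Act5C, 0.16 ± 0.07, missed the threshold of 0.05 (limma, adjusted p = 0.101). Of 7165 genes tested, 26.7% had a slope past the threshold and 9.77% rose. With kallisto TPM (a second estimate of level, from transcripts) in place of FPKM the slope of Act42A was 0.26 (limma, adjusted p = 0.0626), and with each embryo scaled by its median ratio over all genes Act5C passed at 0.23 (limma, adjusted p = 0.0452).

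**Figure D1:**
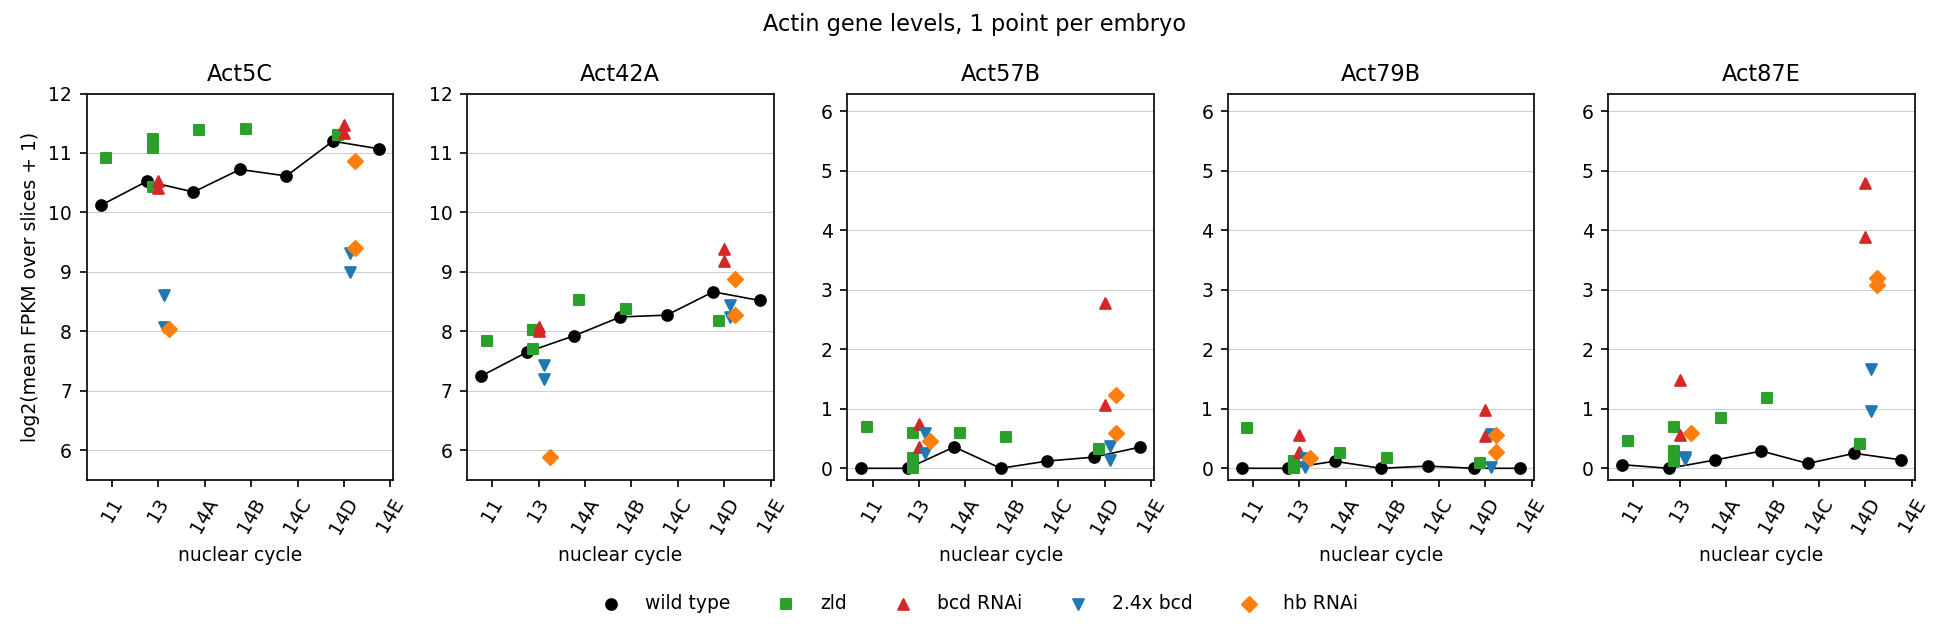
Levels of the 5 actin genes, 1 point per embryo, as log2 of the mean FPKM over slices plus 1 against nuclear cycle, with colours and shapes for the 5 genotypes and a line through the wild-type embryos. The axes of the cytoplasmic genes (Act5C and Act42A) and of the muscle genes span the same number of log2 units but start at different values. Act5C is low in both 2.4x bcd embryos at each cycle (269.2 to 634.4 FPKM), in hb RNAi at cycle 13 (262.1) and in hb RNAi replicate 2 at cycle 14D (675.0). Act87E stands above 7 FPKM only in bcd RNAi and hb RNAi at cycle 14D.

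In zld, Act5C was at 1928 FPKM at cycle 11, at 2175, 1369 and 2416 in the 3 embryos of cycle 13, and at 2661, 2695 and 2537 at cycles 14A, 14B and 14D. Act42A was at 228.5 FPKM at cycle 11, at 258.1, 206.6 and 259.5 at cycle 13, and at 369.0, 333.1 and 289.0 at cycles 14A, 14B and 14D. Act5C lay above the wild-type embryo of the same stage in 6 of 7 zld embryos, and Act42A in 6 of 7, the exceptions being 1 embryo of cycle 13 for Act5C and that of cycle 14D for Act42A. The share of all genes that lay above wild type in as many zld embryos was not counted. Over matched stages, zld exceeded wild type by 0.58 ± 0.24 for Act5C (limma, adjusted p = 0.0753) and by 0.23 ± 0.19 for Act42A (limma, adjusted p = 0.368), and neither passed. The background was 33.7% of genes called, and the median over all genes was itself 0.36. After median-ratio scaling the difference in Act5C was 0.24 (limma, adjusted p = 0.444), while with kallisto TPM it was 1.08 and passed (limma, adjusted p = 0.0281). The slopes over stages in zld minus those in wild type were −0.05 for Act5C and −0.13 for Act42A, with 0 of 7165 genes past the threshold by limma and 338 at an unadjusted p under 0.05.

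Within the SMARTseq2 lines, both cytoplasmic actins were higher at cycle 14D than at cycle 13. The bcd RNAi embryos held 1354 and 1474 FPKM of Act5C at cycle 13, and 2821 and 2591 at cycle 14D. Those of 2.4x bcd held 269.2 and 389.0 FPKM, then 512.6 and 634.4. The hb RNAi embryo of cycle 13 held 262.1 FPKM and those of cycle 14D 1875 and 675.0, the widest gap between replicate embryos. Within each line, no embryo of cycle 13 reached the lowest of cycle 14D. Averaged over the 3 lines, Act5C rose by 1.28 ± 0.24 (log2, limma, adjusted p = 0.000579).

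For Act42A the bcd RNAi embryos held 267.2 and 256.5 FPKM at cycle 13, and 667.0 and 581.9 at cycle 14D. Those of 2.4x bcd held 145.7 and 173.2 FPKM, then 301.1 and 345.5, and those of hb RNAi 58.6, then 468.7 and 308.3. Act42A was thus higher in every embryo of cycle 14D than in any of cycle 13 of the same line. The rise averaged 1.65 ± 0.14 (log2, limma, adjusted p = 1.58e-06) and passed in each line, with 1.248 in bcd RNAi, 1.02 in 2.4x bcd and 2.68 in hb RNAi (limma, adjusted p = 0.000811, 0.00309 and 1.55e-05). For Act5C the change within a line was 2.10 in hb RNAi and passed (limma, adjusted p = 0.00265). The corresponding values were 0.94 in bcd RNAi and 0.82 in 2.4x bcd (limma, adjusted p = 0.0569 and 0.094), and that in bcd RNAi passed at 0.999 without the slices that stood apart (limma, adjusted p = 0.0441). As 79.8% of 7464 genes were called between the cycles, 40.7% of them all higher at 14D, a call for a single actin is common here. Within bcd RNAi, 2.4x bcd and hb RNAi, 61.2%, 58.4% and 68.2% of genes were called, and the median gene changed by −0.04, −0.09 and 0.39. The changes in hb RNAi rest on 1 embryo of cycle 13. The share of all genes whose embryos separated by cycle within each line was not counted.

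Between lines of the same library method, Act5C separated 2.4x bcd from bcd RNAi. At cycle 14D bcd RNAi exceeded 2.4x bcd by 2.24 ± 0.39 for Act5C and by 0.95 ± 0.23 for Act42A (log2, limma, adjusted p = 0.00385 and 0.016). The background was 22.3% of genes called and 9.41% called higher in bcd RNAi. At cycle 13, a comparison added after seeing the data, the differences were 2.12 ± 0.39 for Act5C and 0.72 ± 0.23 for Act42A (limma, adjusted p = 0.00337 and 0.0348, background 31.9%). With kallisto TPM the difference in Act5C was smaller, at 1.66 at cycle 14D and 1.10 at cycle 13 (limma, adjusted p = 0.0109 and 0.0264). The call for Act5C held under all 20 alternatives at both cycles. That for Act42A was lost at cycle 14D with kallisto TPM (0.43, limma, adjusted p = 0.124) and without bcd RNAi replicate 1, bcd RNAi replicate 2 or 2.4x bcd replicate 1 (0.85, 1.05 and 0.85, limma, adjusted p = 0.102, 0.0544 and 0.119), and at cycle 13 its sign turned with kallisto TPM (−0.19, limma, adjusted p = 0.44).

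At cycle 14D the hb RNAi embryos lay between those of bcd RNAi and 2.4x bcd for Act5C. It was 1.26 ± 0.39 higher in bcd RNAi than in hb RNAi and −0.98 ± 0.39 in 2.4x bcd minus hb RNAi, and neither passed (log2, limma, adjusted p = 0.0851 and 0.214, background 5.18% and 3.70%). The corresponding differences of Act42A were 0.71 and −0.24 (limma, adjusted p = 0.0934 and 0.656). The single wild-type embryo of cycle 14D held 72.0 FPKM of bcd mRNA against 4.21 to 11.3 in 2.4x bcd, and 110.2 FPKM of summed mesoderm markers (226.0 at cycle 14E) against 254.8 to 453.4 in the SMARTseq2 embryos, and whether its age within the cycle matched theirs was not tested. Against that embryo, Act5C was lower in 2.4x bcd, with a difference of −2.04 ± 0.51 (log2, limma, adjusted p = 0.0106), where 43.6% of genes were called and the median gene lay 0.60 higher. That call was lost with kallisto TPM (−1.24, limma, adjusted p = 0.0703), with no filter on low genes (limma, adjusted p = 0.109) and without 2.4x bcd replicate 1 (−1.89, limma, adjusted p = 0.06). Act5C did not pass in bcd RNAi (0.20), hb RNAi (−1.06) or zld (0.11), and Act42A in none of the 4 lines (0.62, −0.33, −0.09 and −0.49 in bcd RNAi, 2.4x bcd, hb RNAi and zld). Without hb RNAi replicate 1, whose Act5C level was the higher, hb RNAi minus wild type was −1.80 for Act5C. Without replicate 2 it was −0.32. Each of these leaves a single hb RNAi embryo, so the spread within that line does not enter. In these whole slices, fewer cells that express a gene and less of its RNA per cell cannot be told apart.

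**Figure D2:**
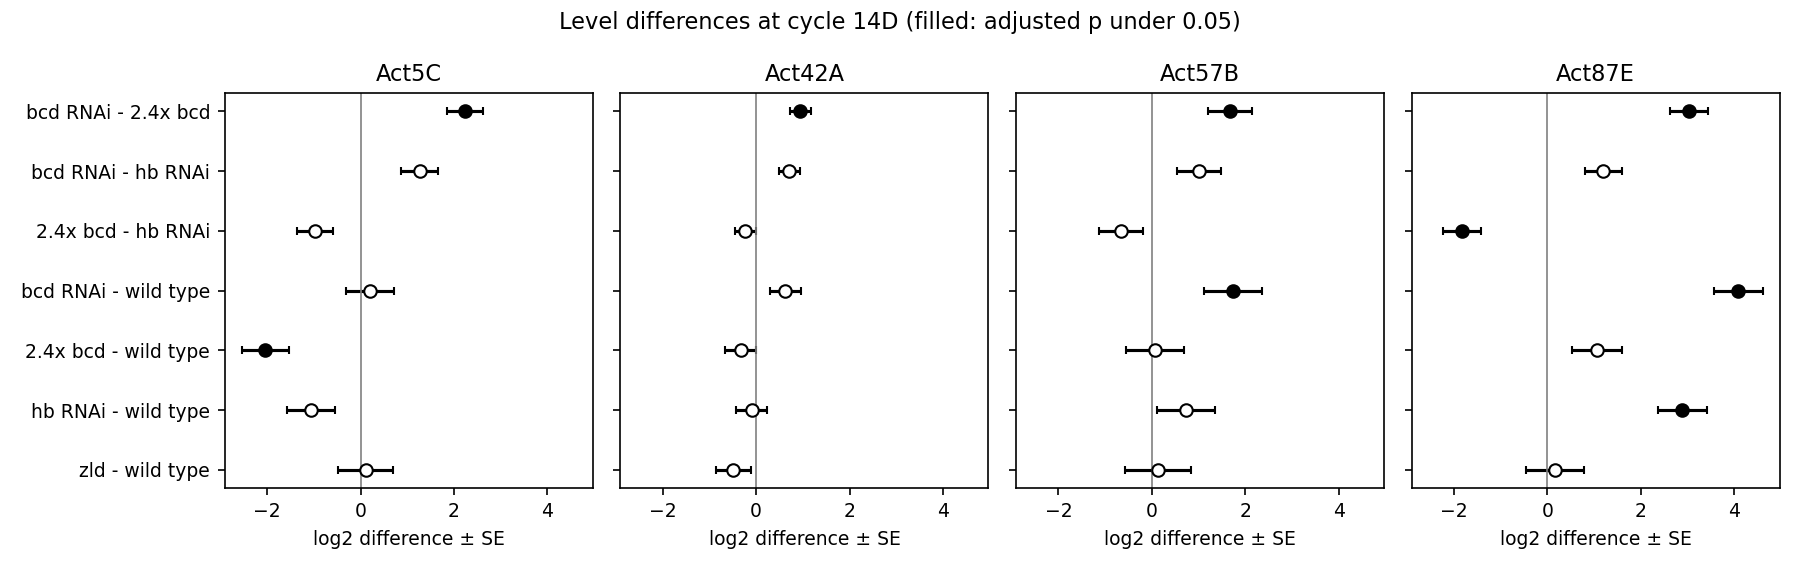
Differences between lines at cycle 14D for the 4 actin genes that passed the filter, as log2 differences on the x axis with bars of 1 SE from limma, and filled points where the adjusted p was under 0.05. Each row is a pair of lines, the first minus the second, and the 4 rows against wild type share 1 wild-type embryo. All 4 genes lie to the right of 0 in bcd RNAi minus 2.4x bcd, and Act87E reaches 4.09 in bcd RNAi minus wild type.

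The ratio of Act5C to Act42A, a measure within an embryo, differed in range between the lines. It was 5.07 to 7.35 in wild type (median 5.80, n = 7), 6.63 to 9.31 in zld (median 8.43, n = 7), 4.23 to 5.75 in bcd RNAi (median 4.76, n = 4), 1.70 to 2.25 in 2.4x bcd (median 1.85, n = 4), and 2.19, 4.0 and 4.47 in the 3 hb RNAi embryos. The 2.4x bcd embryos did not overlap with those of wild type, zld or bcd RNAi, and Act5C made up 62.9% to 69.1% of summed actin FPKM in them against 80.1% to 85.0% in bcd RNAi and 83.5% to 88.0% in wild type. How often the ratios of other gene pairs separate these lines was not counted. The differences between bcd RNAi and 2.4x bcd and between zld and wild type were tested by exact permutation within stages (both sides, added after the values were seen). The ratio in bcd RNAi was 2.55-fold that in 2.4x bcd and higher in 16 of 16 pairs of embryos, with p = 0.0556, the smallest two-sided value that the 36 assignments allow. The ratio in zld was 1.30-fold that in wild type and higher in 31 of 35 pairs, with p = 0.0625 by exact permutation over 64 assignments. Neither reached 0.05, and with Benjamini-Hochberg adjustment over this pair of exact tests both stood at p = 0.0625.

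**Figure D3:**
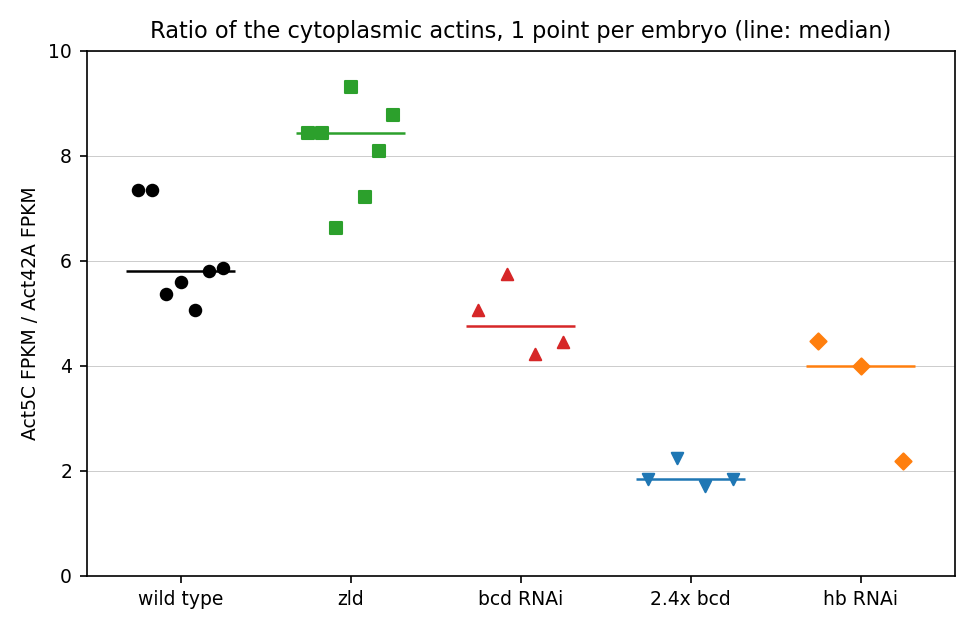
Ratio of Act5C FPKM to Act42A FPKM, 1 point per embryo on a linear axis that starts at 0, with a line at the median of each genotype. The 4 embryos of 2.4x bcd lie between 1.70 and 2.25, below all embryos of wild type, zld and bcd RNAi.

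Along the axis, Act5C and Act42A were close to flat. The earth mover's distance to a flat profile (the share of the profile that must be moved, weighted by how far along the embryo, with values under 0.04 taken as uniform and above 0.08 as patterned) was under 0.04 for Act5C in 19 and for Act42A in 20 of the 22 embryos with at least 6 valued slices. Its median was 0.0128 for Act5C (0.00298 to 0.0613) and 0.016 for Act42A (0.00459 to 0.0598). Neither gene was patterned in any of these embryos. For reference, a median of 76.3% of expressed genes were uniform in an embryo (54.1% to 94.7%). The exceptions were all at cycle 13, for Act5C in both bcd RNAi embryos (0.0613 and 0.046) and hb RNAi (0.0592), and for Act42A in bcd RNAi replicate 1 (0.0598) and hb RNAi (0.0588). In these the mean position lay at 43.9% to 46.1% of the embryo's length from the anterior end, slightly anterior to the middle. At cycle 14D the distance to the wild-type profile was 0.00864 to 0.0386 for Act5C and 0.0107 to 0.0386 for Act42A over the 7 embryos of other lines, where the median gene had 0.0219 to 0.033. In tests of the log2 ratio of the anterior to the posterior of 3 equal parts at cycle 14, Act5C (0.07 ± 0.09) and Act42A (0.01 ± 0.10) did not pass in wild type (limma, adjusted p = 0.762 and 1, background 3.26%). In these tests the wild-type embryos of cycles 14A to 14E were taken as a group, as were the zld embryos of cycle 14. No actin passed in the difference of the anterior to posterior ratio from wild type in any line. There 0.251% (bcd RNAi), 0.647% (2.4x bcd), 0.462% (hb RNAi) and 1.16% (zld) of genes were called.

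The muscle actins were near the detection limit in wild type. Act87E was at 0.043 FPKM at cycle 11, 0 at cycle 13, 0.101 at 14A, 0.223 at 14B, 0.058 at 14C, 0.191 at 14D and 0.103 at 14E, and the highest wild-type slice was at 1.56 FPKM. At the median depth of wild type these means stand for less than 1 fragment per slice, so a low level cannot be told from none. Act57B was at 0 to 0.282 FPKM and was listed at 0 in every slice of 3 wild-type embryos, and Act79B was at 0 to 0.0856 and listed at 0 throughout 5 of them. In zld, Act87E was at 0.376 FPKM at cycle 11, at 0.61, 0.228 and 0.092 at cycle 13, and at 0.787, 1.27 and 0.333 at cycles 14A, 14B and 14D. The single zld embryo of cycle 14D differed from wild type by 0.16 ± 0.61 for Act87E (log2, limma, adjusted p = 0.962), and no member passed there (background 2.96%).

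Act87E rose between cycles 13 and 14D in all 3 SMARTseq2 lines. The bcd RNAi embryos held 0.482 and 1.81 FPKM at cycle 13, and 26.8 and 13.7 at cycle 14D. The hb RNAi embryo of cycle 13 held 0.501 FPKM and those of cycle 14D 7.45 and 8.20. The 2.4x bcd embryos held 0.146 and 0.113 FPKM, then 0.943 and 2.17. At cycle 14D bcd RNAi was highest and 2.4x bcd lowest, and the share of all genes with that order was not counted. The average rise was 2.33 ± 0.25 (log2, limma, adjusted p = 9.22e-06), with 3.31 in bcd RNAi (limma, adjusted p = 6.05e-05), 2.55 in hb RNAi (limma, adjusted p = 0.00101) and 1.14 in 2.4x bcd (limma, adjusted p = 0.0326). Within these lines 61.2%, 68.2% and 58.4% of genes were called. The rise in bcd RNAi minus that in 2.4x bcd, a test added after seeing the data, was 2.17 ± 0.57 and did not pass (limma, adjusted p = 0.121, background 0.737%).

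At cycle 14D, Act87E was 3.03 ± 0.40 higher in bcd RNAi than in 2.4x bcd (log2, limma, adjusted p = 0.00138) and 1.2 ± 0.40 higher than in hb RNAi, the latter not past the threshold (limma, adjusted p = 0.107). In 2.4x bcd it was lower than in hb RNAi, with a difference of −1.83 ± 0.40 (limma, adjusted p = 0.0336), a call that 8 of 20 alternatives lost, among them those without either 2.4x bcd replicate of cycle 14D (−1.47 without replicate 1 and −2.18 without replicate 2, limma, adjusted p = 0.213 and 0.076) or of cycle 13 (limma, adjusted p = 0.0688 and 0.069). Over the cycle 14D embryos, Act87E passed the filter only through bcd RNAi, hb RNAi and 2.4x bcd replicate 2, not wild type or zld. The lines called higher than wild type were thus among those that met the filter. Against wild type it was higher by 4.09 ± 0.53 in bcd RNAi and by 2.89 ± 0.53 in hb RNAi (limma, adjusted p = 0.000453 and 0.00251), where 43.2% and 42.9% of genes were called. Both calls and that against 2.4x bcd held under every alternative run. In 2.4x bcd the difference from wild type was 1.06 ± 0.53 (limma, adjusted p = 0.128). These values add 1 FPKM before the logarithm, and since wild type lay near 0 they understate the ratio of the levels. Even at its highest, Act87E made up 0.761% and 0.430% of summed actin FPKM in the bcd RNAi embryos of cycle 14D and 0.317% and 0.826% in those of hb RNAi, against 0.00693% in wild type (0.789% and 0.441% in bcd RNAi without the slices that stood apart).

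**Figure D4:**
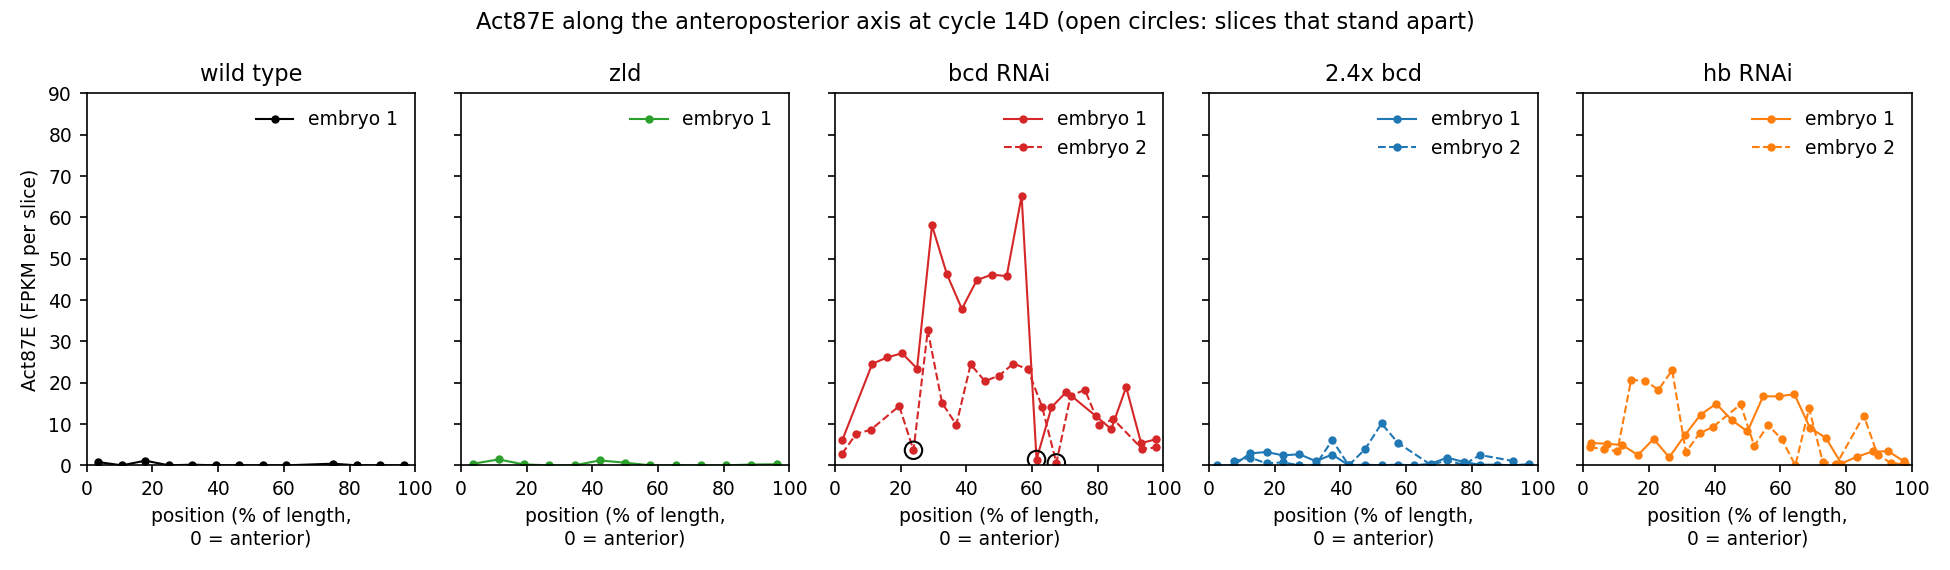
Act87E level in each slice of the cycle 14D embryos, as FPKM on a linear axis against position in percent of length from the anterior end, with 1 panel per genotype and 1 line per embryo. Open circles mark the 3 slices that correlated below 0.9 with the rest of their embryo. Slices reach 65.2 and 32.7 FPKM in the bcd RNAi embryos and stay at or below 1.13 in wild type.

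Among the slices of cycle 14D, Act87E ranged from 1.41 to 65.2 FPKM with a median of 24 in bcd RNAi replicate 1, and from 0.59 to 32.7 with a median of 14.2 in replicate 2. In hb RNAi it ranged from 0.43 to 17.2 FPKM with a median of 6.39, and from 0 to 23.03 with a median of 5.53. The highest slice in 2.4x bcd was at 3.22 FPKM in replicate 1 and 10.1 in replicate 2. The 3 slices that stood apart were low beside their neighbours, at 1.41 FPKM in replicate 1 and 3.64 and 0.59 in replicate 2, and without them the embryo means were 28.1 and 14.9. The difference from 2.4x bcd was then 3.12 and that from wild type 4.18 (limma, adjusted p = 0.00114 and 0.000451).

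The profile of Act87E was less flat than that of the cytoplasmic genes. Its distance to a flat profile was 0.0896 and 0.0602 in bcd RNAi and 0.0773 and 0.117 in hb RNAi, and 95.4%, 91.7%, 94.1% and 94.0% of expressed genes in these embryos were flatter. These ranks are over expressed genes of any level. The cytoplasmic genes were at far higher levels, and Act87E was not compared with genes of a level like its own. The middle of 3 equal parts held 49.7% and 46.8% of the profile in bcd RNAi (52.9% and 43.5% without the slices that stood apart), and the posterior part 15.6% and 23.5%. In hb RNAi the replicates differed in shape, with 61.9% in the middle part of replicate 1 and 49.1% in the anterior part of replicate 2, and their profiles lay 0.102 apart against 0.0482 for the bcd RNAi pair. The log2 ratio of the middle to both ends was 0.94 ± 0.41 in bcd RNAi, 0.76 ± 0.41 in hb RNAi and 0.64 ± 0.41 in 2.4x bcd, and none passed (limma, adjusted p = 0.922, 0.722 and 0.744, with 0.172%, 0.792% and 0.739% of genes called). No actin passed in wild type or zld, where 0.673% and 0.581% of genes did. The anterior to posterior ratio of Act87E exceeded that of wild type by 0.68 in bcd RNAi and 0.72 in hb RNAi, and did not pass either (limma, adjusted p = 0.765 and 0.779).

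Act57B passed the filter only through embryos of bcd RNAi and hb RNAi at cycle 14D, the lines where it was high, and 1 slice weighed heavily in it. At cycle 14D it was at 5.87 and 1.10 FPKM in bcd RNAi, 1.36 and 0.512 in hb RNAi, 0.296 and 0.104 in 2.4x bcd, 0.251 in zld and 0.139 in wild type. Without the slices that stood apart the bcd RNAi embryos were at 1.48 and 0.877 FPKM. Slice 14 of bcd RNAi replicate 1 alone was at 89.4 FPKM, where the other slices of that embryo had a median of 1.26. That slice also held 1322 FPKM of Act42A against 625.4, 1236 of Act5C against 2888 and 1.41 of Act87E against 24.6, from an estimated 471147 fragments against 4699306. Act57B was higher in bcd RNAi than in 2.4x bcd by 1.67 ± 0.47 and than in wild type by 1.74 ± 0.62 (log2, limma, adjusted p = 0.0302 and 0.0454). Without the slices that stood apart these were 0.85 and 0.92 and no longer passed (limma, adjusted p = 0.0587 and 0.0841), nor did they without bcd RNAi replicate 1 (0.81 and 0.88, limma, adjusted p = 0.182 and 0.219) or either 2.4x bcd replicate of cycle 14D (limma, adjusted p = 0.123 and 0.115 against 2.4x bcd, 0.0756 and 0.078 against wild type). The change of Act57B from cycle 13 to 14D over the 3 lines was 0.56 ± 0.29 and did not pass (limma, adjusted p = 0.103). Without the slices that stood apart it was 0.28 (limma, adjusted p = 0.169), and the change within bcd RNAi went from 1.37 ± 0.47, past the threshold, to 0.56 ± 0.29, not past it (limma, adjusted p = 0.0268 and 0.118).

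Act79B was below 1 FPKM in every embryo and never passed the filter of 1 FPKM in at least 2 embryos, so it was not tested. Its highest embryo mean was 0.973 FPKM in bcd RNAi replicate 1 at cycle 14D, followed by 0.594 in the zld embryo of cycle 11, and its highest slice was at 9.07 in 2.4x bcd replicate 1 at cycle 14D. In bcd RNAi at cycle 14D, 19 of 20 and 16 of 21 slices had a value above 0, where no slice of the wild-type embryo of that stage did. In hb RNAi at that cycle 16 of 21 and 18 of 22 slices did, in 2.4x bcd 3 of 20 and 2 of 16, and in zld at cycle 11 7 of 7. A value above 0 depends on depth, with a median of 841487 fragments in wild-type and 4167911 in bcd RNAi slices. With kallisto that wild-type embryo had a mean of 0.107 TPM.

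Markers of the mesoderm, from which muscle forms, moved with Act87E in part. Their summed level over 6 genes (twi, sna, Mef2, htl, tin and Mes2) at cycle 14D was 453.4 and 407.7 FPKM in bcd RNAi, 447.7 and 413.0 in hb RNAi, 383.2 and 254.8 in 2.4x bcd, 110.2 in wild type and 64.6 in zld. Of the 6, 5 were called higher than wild type in bcd RNAi, 4 in hb RNAi and 3 in 2.4x bcd (background 43.2%, 42.9% and 43.6% of genes called in either direction). In bcd RNAi, 2 were called higher than in 2.4x bcd (background 22.3% called in either direction and 9.41% called higher). The receptor gene htl was at 12.3 to 27.8 FPKM in all 6 SMARTseq2 embryos against 0.236 in wild type. The mesodermal regulator tin was at 67.3 and 11.8 FPKM in bcd RNAi, 2.24 and 18.3 in hb RNAi, 2.58 and 3.36 in 2.4x bcd and 0.59 in wild type. The part of these markers, and of the embryos' exact age, in the level of Act87E was not tested. Other genes of the contractile apparatus stayed low: of 15 sarcomere genes, 1 to 3 reached 1 FPKM in an embryo of cycle 14D, and the muscle myosin gene Mhc was at or below 0.144. The exception was the tropomyosin gene Tm1, which also has non-muscle isoforms, at 229.3 to 440.1 FPKM.

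Actin regulators were called in both directions, in shares to be read against those of all genes. Of 31 tested genes of actin dynamics (monomer binding, nucleation, elongation, capping and bundling), 2 rose and 5 fell over wild-type stages, 13 were higher and none lower in zld over matched stages (list median 0.45, all genes 0.36), and 10 rose and 11 fell from cycle 13 to 14D, where 26.7%, 33.7% and 79.8% of all genes were called. Of 9 tested actomyosin genes, 2 rose and none fell, 3 were higher and 1 lower, and 7 rose and 2 fell in the same comparisons. Over wild-type stages the elongation factor gene ena rose by 0.30 per step and the septin gene pnut by 0.26, while the monomer-binding twf (−0.60) and the bundling gene Fim (−0.57) fell. In zld the formin gene DAAM (2.08) and the cofilin phosphatase gene ssh (1.87) were higher and the myosin light chain gene Mlc-c (−0.70) lower. From cycle 13 to 14D the nonmuscle myosin heavy chain gene zip (3.22) and ena (2.72) rose, and cib (−3.25), which encodes a monomer-binding protein, and bs (−2.71), the fly serum response factor, fell (all log2, limma, adjusted p under the threshold of 0.05).

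Between bcd RNAi and 2.4x bcd at cycle 14D, 5 of 31 dynamics genes were higher and 3 lower, and 2 of 9 actomyosin genes were lower (background 22.3%). The largest were cib (3.26) and tmod (1.45), whose product caps pointed ends, against Mbs (−1.13), a myosin phosphatase subunit, and cpb (−1.12), a capping protein subunit. For cib the levels were 105.0 and 113.3 FPKM in bcd RNAi, 9.06 and 12.2 in 2.4x bcd, 70.2 and 28.2 in hb RNAi and 129.5 in wild type, so that cib, like Act5C, was lowest in 2.4x bcd. In bcd RNAi minus hb RNAi, 3 dynamics genes were lower and none higher (background 5.18%), led by the SRF cofactor gene Mrtf (−1.40) and the filamin gene cher (−1.13). In 2.4x bcd minus hb RNAi, 2 were lower, cib (−1.98) and cher (−1.19, background 3.70%). Against wild type, where 43.2%, 43.6% and 42.9% of genes were called in bcd RNAi, 2.4x bcd and hb RNAi, 7 of 30 dynamics genes were higher and 2 lower in bcd RNAi, led by tmod (3.68), the Arp2/3 subunit gene Arpc3A (2.93) and Arp2 (−1.34). Of the 9 actomyosin genes 2 were higher and 1 lower there, the lower being the myosin phosphatase catalytic gene flw (−1.19). In 2.4x bcd 8 dynamics genes were higher and 2 lower, led by twf (2.94), Arpc3A (2.40), cib (−3.50) and the fascin gene sn (−1.60), and 2 actomyosin genes were higher. In hb RNAi 8 dynamics genes were higher and 1 lower, led by tmod (3.50) and cib (−1.52), and of the actomyosin genes zip alone was higher (2.77). In zld at that cycle capt (1.91), the cyclase-associated protein gene, was the only one of both lists to pass (background 2.96%). These comparisons with wild type share its 1 embryo.

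Across the 25 embryos, which share stages and library methods, levels on the log2 scale correlated at a Pearson r of 0.69 between Act5C and Act42A, 0.82 between Act57B and Act79B, 0.81 between Act57B and Act87E, and 0.19 between Act5C and Act87E, given as a description. The genes whose levels most resembled those of Act5C were CG5210 (0.952), CG3376 (0.929) and ytr (0.927), and for Act42A they were CG4670 (0.967), Hel25E (0.962) and TMS1 (0.956). Act87E was most like NimC4 (0.953), CG3955 (0.942) and CG45263 (0.942), and all 3 of these reached their lowest level at 0. For Act57B the nearest were bnl (0.857), CG42556 (0.845) and dally (0.837). For Act79B they were Act57B (0.817), snRNP-U1-70K (0.778) and dally (0.746).

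Of the 5 annotated transcripts of Act5C, FBtr0100663 and FBtr0070822 carried most of the kallisto TPM. In TruSeq embryos FBtr0070822 held 20.4% to 42.8% of the TPM of Act5C (median 29.4%) and FBtr0100663 51.0% to 76.3% (median 66.0%). In SMARTseq2 embryos their shares spread more widely, from 4.96% to 66.2% and from 28.5% to 89.4%. The hb RNAi embryos of cycle 14D held 46.8% and 4.96% of FBtr0070822, in the order in which their Act5C levels were 1875 and 675.0 FPKM. FBtr0100662 was at 0 TPM in every embryo. Act87E was carried mainly by FBtr0082785, with a median share of 100%.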

How the data were processed

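Per the labels and the methods of the study, reads were handled by the authors with CASAVA 1.8.0, STAR 2.3.0.1, Cufflinks 2.2.1 and kallisto 0.42 on FlyBase annotation, and shallow or poorly mapping slices were dropped. The deposited FPKM values per gene and slice come from Cufflinks. The second deposited table holds kallisto values per transcript with one fixed sum in every slice, and was used as TPM summed per gene, although its columns are headed FPKM. Depth was estimated from the steps between low FPKM values of 2229 single-transcript genes and was tested on simulated data. FPKM and TPM carry no counts, so no interval for counting error is given.

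Slices with values were averaged per embryo and log2(FPKM + 1) was fitted with limma 3.58.1 (R 4.3.3) over all genes with a mean of at least 1 FPKM in at least 2 embryos of the fit, and p-values were adjusted by Benjamini-Hochberg and called under 0.05. The 14 TruSeq embryos, the 11 SMARTseq2 embryos, the 8 embryos of cycle 14D and 14 embryos of cycle 14 (slice ratios) were fitted separately. A lone embryo of a group is assumed to vary like the others. Replicates are separate embryos, and p-values of group comparisons measure the spread between them. Those of the wild-type trend measure the scatter around a line, with 1 embryo per stage. In the slice ratios the embryos of a genotype were pooled over the stages of cycle 14, so differences between stages enter the spread. Profiles and exact permutation tests used Python 3.11.15 with scipy 1.17.1, and missing slices were filled from their neighbours in profiles only. Members and gene lists were chosen with earlier results of these data known. The text names the members, the 3 genes most correlated with each, and the 2 actin regulators per comparison with the largest rise and fall past the threshold. Markers, cib levels and targeted genes were named besides. Alternatives were kallisto TPM, pseudocounts of 0.1 and 5, other filters, median-ratio scaling, medians over slices, left-out embryos and a replicate block. Leaving out 3 slices that stand apart was added after seeing the data.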

Additional observations from a re-analysis of the deposited data

How the results depend on the processing

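The number of actin genes called moved by over 1.5 times under some setting in 8 comparisons. With kallisto TPM it went from 1 to 0 for the wild-type trend, 0 to 1 for zld over matched stages, 4 to 2 for bcd RNAi against 2.4x bcd, 2 to 1 for bcd RNAi against wild type and 1 to 0 for 2.4x bcd against wild type. With no filter it was 1 for zld, 0 for 2.4x bcd against hb RNAi, 1 for bcd RNAi against wild type and 0 for 2.4x bcd against wild type. With genes at 15 FPKM in a slice it was 1 for zld and 1 for bcd RNAi against wild type. Pseudocount 5 gave 1 for bcd RNAi against hb RNAi (0 in the report), 0 for 2.4x bcd against hb RNAi and 1 for bcd RNAi against wild type, and pseudocount 0.1 gave 0 for 2.4x bcd against hb RNAi and 2 for 2.4x bcd against wild type. Median-ratio scaling gave 2 for the wild-type trend and 1 for bcd RNAi against wild type, 2 classes of stages gave 0 for the trend, medians over slices and leaving out the slices that stand apart each gave 1 for bcd RNAi against wild type, and a wild-type group of cycles 14C to 14E gave 2 for 2.4x bcd. For bcd RNAi against 2.4x bcd it also fell from 4 to 3 with no filter, pseudocount 5, medians over slices and without the slices that stand apart, where Act57B was lost (limma, adjusted p = 0.0772, 0.059, 0.0697 and 0.0587). Leaving out 1 embryo at a time gave 0 to 1 for zld over matched stages, 2 to 4 for bcd RNAi against 2.4x bcd, 0 to 2 for each of these lines against hb RNAi, and against wild type 1 to 3 for bcd RNAi, 0 to 1 for 2.4x bcd and 1 to 2 for hb RNAi. The cause was not tested. Single calls also moved in other comparisons. Without bcd RNAi replicate 2 of cycle 14D, Act57B was at 0.84 from cycle 13 to 14D and at 2.45 in the middle ratio of bcd RNAi. That leaves replicate 1 alone, whose slice 14, which stood apart, held 89.4 FPKM against a median of 1.26 in its other slices. The middle ratio of replicate 2 was −0.71. Act87E passed in the difference of changes with pseudocount 5 and at cycle 13 in bcd RNAi against 2.4x bcd with pseudocount 0.1 (limma, adjusted p = 0.0405 and 0.0215). At cycle 13, the call for Act42A between these lines was lost with no filter and without any one of the 4 embryos of that cycle or either bcd RNAi embryo of cycle 14D (limma, adjusted p = 0.0505 to 0.195), and Act42A reversed with kallisto TPM, to −0.19. The log2 ratio of Act5C to Act42A differed by 0.43 between zld and wild type with stages not matched (exact permutation p = 0.00408) and by 0.32 to 0.42 with 1 zld embryo left out, and by 1.35 between bcd RNAi and 2.4x bcd with stages not matched (exact permutation p = 0.0286).

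Between groups, the deviations of samples with the same replicate number correlated at r of −0.29 to 0.21. Whether embryos of different groups shared a batch under other numbering was not tested. With the replicate block, 2.4x bcd against hb RNAi called 0 members, with Act87E at −1.83 (limma, adjusted p = 0.0503), and with 2 pairs this is no sign of a weaker effect. Over all genes the counts called ranged under the alternatives from 1 to 2100 for the wild-type trend (1910 in the report), 1329 to 3215 for zld over matched stages (2418), 455 to 2581 for bcd RNAi against 2.4x bcd (1667), 22 to 1676 for bcd RNAi against hb RNAi (387), 75 to 1100 for 2.4x bcd against hb RNAi (276), 1731 to 4051, 1844 to 4119, 1803 to 4098 and 119 to 642 for bcd RNAi, 2.4x bcd, hb RNAi and zld against wild type (3156, 3184, 3137 and 216), 1000 to 4344 for bcd RNAi against 2.4x bcd at cycle 13 (2383), 0 to 273 for the difference of their changes (55), 0 to 86 for the difference of trends (0), and 112 to 316 for the wild-type anterior to posterior ratio (247). For its difference from wild type they were 1 to 31, 20 to 104, 11 to 43 and 52 to 136 in bcd RNAi, 2.4x bcd, hb RNAi and zld (19, 49, 35 and 88), and for the middle ratio 0 to 75 in wild type and 1 to 96, 2 to 127, 0 to 172 and 5 to 119 in those lines (51, 13, 56, 60 and 44). Depth limits Act57B, Act79B and, in wild type, Act87E.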
